A study of Homo sapiens with 4 samples.

Results

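The genes of deoxynucleotide supply were followed in human mammary epithelial cells with and without a shRNA against PAK1. They are CAD, GMPS, RRM1, RRM2, TYMS, DUT, TK1, DCK and SAMHD1, and they were taken by gene name from the spots of the arrays that are not controls. All 9 were found, by 11 probes, among 27193 gene names on the array. The control group was 2 samples of MCF10A.B2 cells, which the labels call control, Ctrl or Pak1 wild type. The PAK1 shRNA group was 2 samples of MCF10A.B2 cells with a shRNA targeting Pak1, which according to the methods is induced by tetracycline. MCF10A is a line of non-tumorigenic mammary epithelium, although the labels also give it a diagnosis of breast cancer and the series text speaks of cells from tumors. The B2 derivative carries a chimeric ErbB2 (Her2) receptor that the crosslinker AP1510 activates. Both groups were kept in medium with 5% horse serum, deprived of serum for 3 h and then given AP1510 for 15 min, so that ErbB2 was active in the controls as well. No array with a non-targeting shRNA was analysed here. The lowering of PAK1, the expression of a shRNA and any effect of tetracycline therefore cannot be told apart. The sources used here do not say whether the 2 samples of a group were separate cultures, and p-values then measure only the spread between these samples, which may be technical.

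RNA (0.5 ug) was labelled in 1 colour and hybridized to Agilent whole genome arrays, which lay together on 1 slide. Each array held 34127 probes in 43118 spots other than controls, and from 78.0% to 82.0% of the probes were well above background. The number of arrays limits the precision. Arrays of the same group correlated at 0.998 across genes in both groups, and arrays of different groups at 0.930 to 0.940. PAK1, the target of the shRNA, was measured first. It had a normalized log2 intensity of 11.19 and 11.27 in controls and of 10.44 and 10.51 in PAK1 shRNA cells. It fell by 0.76 on the log2 scale (SE 0.08, adjusted p = 0.000181 from limma, with the Benjamini-Hochberg method over all genes), to 59.2% of the control level. Among 21923 genes tested, 7010 (32.0%) were lower and 6707 (30.6%) were higher in PAK1 shRNA cells at an adjusted p under 0.05, or 62.6% in either direction. The log2 fold change given throughout is PAK1 shRNA minus control.

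A dividing cell needs deoxynucleoside triphosphates (dNTPs) in step with DNA synthesis. Nucleotides are built from small precursors, and ribonucleotide reductase, an enzyme of a large (RRM1) and a small (RRM2) subunit, turns ribonucleoside diphosphates into the deoxy form. Thymidylate is made separately by thymidylate synthase (TYMS) from dUMP, which DUT supplies by cleaving dUTP, or it is salvaged from thymidine by thymidine kinase 1 (TK1). DCK salvages deoxycytidine and purine deoxynucleosides, while SAMHD1 works the other way by splitting dNTPs, and it is known for restricting viruses in cells that do not divide. In most cells RRM2, TK1, TYMS and DUT are transcribed mainly around S phase, under E2F factors and factors that bind CCAAT and CHR elements.

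Because many of these genes are known as E2F or cell cycle targets, the bases just upstream of their starts are shown for the reductase and thymidylate genes and for SAMHD1. They were read from RefSeq (GRCh38.p14), which held a window for all 9 genes. Each line gives the 250 bases before an annotated start, 5′ to 3′ on the strand of the gene. Capitals mark the words searched on both strands. These were 4 E2F words (TTTCCCGC, TTTCGCGC, TTTGCCGC and TTTGGCGC), the CCAAT box (CCAAT, or ATTGG on the other strand) and the CHR element (TTTGAA, or TTCAAA on the other strand). No word overlapped another in the bases shown. Where a gene had several windows, that with the most matches is printed. The regions are chr11:4094435-4094684 (plus strand) for RRM1, chr2:10122489-10122738 (plus strand) for RRM2, chr18:657403-657652 (plus strand) for TYMS, chr15:48331947-48332196 (plus strand) for DUT, chr17:78187053-78187302 (minus strand) for TK1 and chr20:36951709-36951958 (minus strand) for SAMHD1.
RRM1: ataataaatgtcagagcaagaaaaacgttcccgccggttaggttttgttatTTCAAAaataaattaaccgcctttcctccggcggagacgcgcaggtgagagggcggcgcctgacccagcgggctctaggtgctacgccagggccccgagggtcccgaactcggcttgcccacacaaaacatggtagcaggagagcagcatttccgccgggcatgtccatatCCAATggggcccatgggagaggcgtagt
RRM2: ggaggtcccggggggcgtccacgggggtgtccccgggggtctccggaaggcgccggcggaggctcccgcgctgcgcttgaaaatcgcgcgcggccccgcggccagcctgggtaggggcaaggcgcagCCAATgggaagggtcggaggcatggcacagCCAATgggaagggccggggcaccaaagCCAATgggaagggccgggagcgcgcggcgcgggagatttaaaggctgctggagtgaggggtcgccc
TYMS: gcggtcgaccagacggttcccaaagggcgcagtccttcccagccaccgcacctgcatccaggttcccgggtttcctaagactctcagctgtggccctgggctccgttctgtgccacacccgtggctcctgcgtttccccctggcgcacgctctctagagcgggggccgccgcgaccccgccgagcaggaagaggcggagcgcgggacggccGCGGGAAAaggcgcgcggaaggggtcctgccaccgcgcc
DUT: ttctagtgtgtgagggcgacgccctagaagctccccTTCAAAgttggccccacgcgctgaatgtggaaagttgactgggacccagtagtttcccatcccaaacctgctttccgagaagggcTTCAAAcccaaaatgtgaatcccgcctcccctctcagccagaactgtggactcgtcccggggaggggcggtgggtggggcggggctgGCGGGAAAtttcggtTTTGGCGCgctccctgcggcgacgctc
TK1: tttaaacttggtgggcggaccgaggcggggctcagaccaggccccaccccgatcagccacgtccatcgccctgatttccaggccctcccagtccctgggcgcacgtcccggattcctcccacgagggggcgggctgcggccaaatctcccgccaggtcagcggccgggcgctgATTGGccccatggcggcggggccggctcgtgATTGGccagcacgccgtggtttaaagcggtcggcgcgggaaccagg
SAMHD1: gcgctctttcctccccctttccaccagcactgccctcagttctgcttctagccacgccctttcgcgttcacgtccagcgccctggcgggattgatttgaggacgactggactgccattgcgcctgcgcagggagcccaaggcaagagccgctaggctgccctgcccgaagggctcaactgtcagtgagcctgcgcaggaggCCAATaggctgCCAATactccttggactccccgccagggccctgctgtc

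The search covered 250 bases before and 50 after each start. RRM2 held the CCAAT box 3 times, beginning at -123, -93 and -66 from the start, and TK1 held it 2 times on the other strand, beginning at -77 and -46. TYMS had an E2F word from -39 to -32, and DUT had 2 of them, from -42 to -35 and from -27 to -20. SAMHD1, the gene that was higher, also had 2 CCAAT boxes, beginning at -49 and -38, so the word was not limited to the genes that were lower. These positions are from the start of the window printed, which was picked for its matches. The other windows of DUT and TK1 held none of the words, and the other window of RRM2 held 1 CCAAT box. GMPS, which was lower, had no match in its window. Of 14 windows of the 9 genes, 3 held an E2F word, 6 a CCAAT box and 2 a CHR element. Over all 35116 windows of the same length the shares were 3.31%, 34.6% and 15.2%. A pair of GAAA words 2 bases apart, as in interferon-stimulated response elements, was in none of the 14 windows and in 3.57% of all windows. These are matches of letters and not measured sites.

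Of the 9 genes, 8 could be fitted in the main analysis. In PAK1 shRNA cells 7 of them were lower and SAMHD1 alone was higher, each past the threshold. Over all genes tested 32.0% were lower and 30.6% higher. The ninth, DCK, was also lower when its flagged spots were kept. All 7 lower genes fell by at least 2-fold, as did 1995 of the 7010 genes called lower (9.10% of all genes tested). Of the 8 genes fitted, 7 had both PAK1 shRNA values below every control value measured and SAMHD1 had them above. Over all genes tested these shares were 40.0% and 42.0%. The genes are the same ones that were called, so this count adds no separate support, and DUT and TK1 had 1 control value each. The median log2 fold change of the 8 genes was -2.13, beside 0.02 over all genes tested. For a single gene, the smallest two-sided p that an exact permutation of 2 arrays against 2 allows is 0.333, so no call can rest on a permutation. The calls rest on the model of limma, which shares the spread across genes. The unpaired t-test, which does not share it, called 6 of the 8 genes lower and 1 higher, and DUT did not pass. In bulk samples such as these, fewer cells of a type and less RNA per cell cannot be told apart.

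**Figure D1:**
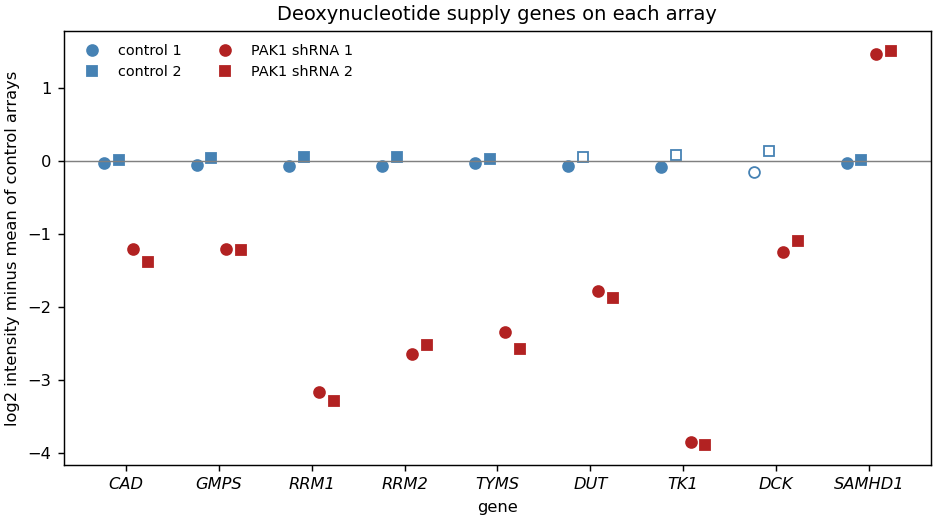
Log2 intensity of each gene on each array minus the mean of its 2 control arrays (vertical axis, log2 units), for the 9 genes (horizontal axis), from the fit that kept flagged spots. Open symbols are spots with a background flag. In 8 genes both PAK1 shRNA arrays lie below both control arrays, and in SAMHD1 both lie above.

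The plot of the genes by array shows the spread between arrays of a group beside the distance between groups. In every gene the 2 arrays of a group lie close together and the groups lie apart. TK1 lies farthest below its controls. In this plot DUT, TK1 and DCK have open symbols on 1 or both control arrays, which are described with each gene.

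Both subunits of ribonucleotide reductase fell. RRM1, the large subunit, which holds the catalytic site and the sites that sense the balance of dNTPs, had log2 intensities of 14.40 and 14.53 in controls and 11.29 and 11.17 in PAK1 shRNA cells. RRM2, the small subunit, which provides the tyrosyl radical and limits the enzyme outside S phase, had 12.05 and 12.17 in controls and 9.46 and 9.59 in PAK1 shRNA cells. In both genes the groups were apart by many times the distance between arrays of a group. RRM1 changed by -3.23 (SE 0.09, 95% confidence interval -3.44 to -3.02, adjusted p = 9.46e-07 from limma), which left 10.6% of the control level. RRM2 changed by -2.58 (SE 0.09, 95% confidence interval -2.79 to -2.38, adjusted p = 1.93e-06 from limma), which left 16.7%. The RRM1 probe lies at chr11:4159947-4160006 and the RRM2 probe at chr2:10270487-10270546, both on the plus strand (hg19, as all probe positions here). The files give no exon or UTR annotation for the probes, and none was used here.

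Of the other parts of the reductase system, a list of 4 genes, 2 were lower and 2 were higher, with a median log2 fold change of 0.01. Among all genes tested 32.0% were lower and 30.6% higher. RRM2B, the p53-inducible small subunit that replaces RRM2 in resting cells, had log2 intensities of 9.80 and 10.01 in controls and 10.87 and 10.89 in PAK1 shRNA cells. It rose by 0.98 (SE 0.09, adjusted p = 0.000129 from limma), the opposite direction to RRM2. Glutaredoxin (GLRX), which can return electrons to the enzyme, rose by 1.20 (adjusted p = 2.58e-05 from limma). The other electron route was lower, as TXNRD1, thioredoxin reductase, fell by 1.03 (adjusted p = 9.99e-05 from limma) and TXN, thioredoxin, fell by 0.96 (adjusted p = 0.000353 from limma). TXN had no value on the first control array, so its fit had 3 arrays.

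Transcripts of TYMS and DUT, the thymidylate genes, both fell. TYMS had log2 intensities of 14.69 and 14.75 in controls and 12.35 and 12.12 in PAK1 shRNA cells. Its probe lies at chr18:673276-673335 on the plus strand. The PAK1 shRNA arrays differed from each other by more than the control arrays did, and both lay far below them. TYMS changed by -2.48 (SE 0.10, 95% confidence interval -2.71 to -2.25, adjusted p = 3.54e-06 from limma), leaving 17.9% of the control level.

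DUT, the dUTPase that keeps uracil out of DNA, was measured by 2 probes. The brighter one, at chr15:48633763-48634258 on the plus strand, had log2 intensities of 15.93 on the first control array and of 14.20 and 14.10 in PAK1 shRNA cells. The spot on the second control array was left out because its background was flagged as an outlier, and the fit had 3 arrays. Both PAK1 shRNA values were below the control value that remained. DUT changed by -1.79 (SE 0.10, 95% confidence interval -2.04 to -1.53, adjusted p = 4.09e-05 from limma), to 29.0% of the control level. The dimmer probe, at chr15:48633737-48634231, had no flagged spot. It read 13.07 and 13.09 in controls and 11.41 and 11.27 in PAK1 shRNA cells, a change of -1.74 (SE 0.08, adjusted p = 3.72e-06 from limma over 27394 probes). The 2 probes share a run of 22 bases and are not independent. Both cover more genome than their 60 bases, 496 and 495 bases, so each includes an intervening stretch. With the mean over the probes in place of the brighter one, DUT changed by -1.05 and did not pass (adjusted p = 0.0796 from limma), because the mean on the second control array is then the dimmer probe alone.

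The genes around TYMS in the thymidylate and folate cycle were mostly lower. Of 7, 6 fell and none rose, beside 32.0% lower and 30.6% higher over all genes tested. The median log2 fold change was -0.95. DTYMK, the thymidylate kinase that acts right after TYMS and TK1, had log2 intensities of 15.27 and 15.35 in controls and 12.04 and 11.89 in PAK1 shRNA cells. It fell by 3.35 (SE 0.08, adjusted p = 8.05e-07 from limma), the largest fall among the 64 related genes, and 9.83% of the control level was left. The cytosolic serine hydroxymethyltransferase SHMT1 fell by 1.43 (adjusted p = 1.89e-05 from limma). The mitochondrial folate enzyme MTHFD2 had a log2 fold change of -0.16 and did not pass (adjusted p = 0.231 from limma).

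TK1, which salvages thymidine in the cytosol and is degraded at the end of mitosis, had the largest change of the 9 genes. Its log2 intensity was 15.94 on the first control array and 12.16 and 12.13 on the PAK1 shRNA arrays, and the spot on the second control array was left out for a flagged background. The 2 PAK1 shRNA arrays differed by a small fraction of their distance to the control. TK1 changed by -3.80 (SE 0.09, 95% confidence interval -4.04 to -3.56, adjusted p = 2.63e-06 from limma), which left 7.18% of the control level. With the flagged spot kept, the control arrays read 15.93 and 16.10 and the change was -3.87 (adjusted p = 7.58e-07 from limma). The probe lies at chr17:76170193-76170252 on the minus strand.

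DCK, at chr4:71895933-71895992 on the plus strand, had the flag on both control arrays and so had no control value in the main analysis. The local background there was 35 and 36 intensity units, beside a scanner signal of 268 and 263 in controls and of 80.7 and 88.7 in PAK1 shRNA cells. In the fit with flagged spots kept, which was chosen for DCK after the data were seen, its log2 intensities were 7.88 and 8.17 in controls and 6.78 and 6.93 in PAK1 shRNA cells. The groups did not overlap, and the spread between control arrays was wider than for the brighter genes. DCK changed by -1.17 (SE 0.12, 95% confidence interval -1.45 to -0.89, adjusted p = 0.000194 from limma), to 44.4% of the control level. The size of its change moved with the processing, from -2.0 with the processed signal scaled to its 75th percentile to -0.67 with normexp fitted on all spots, and the cause was not tested.

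**Figure D2:**
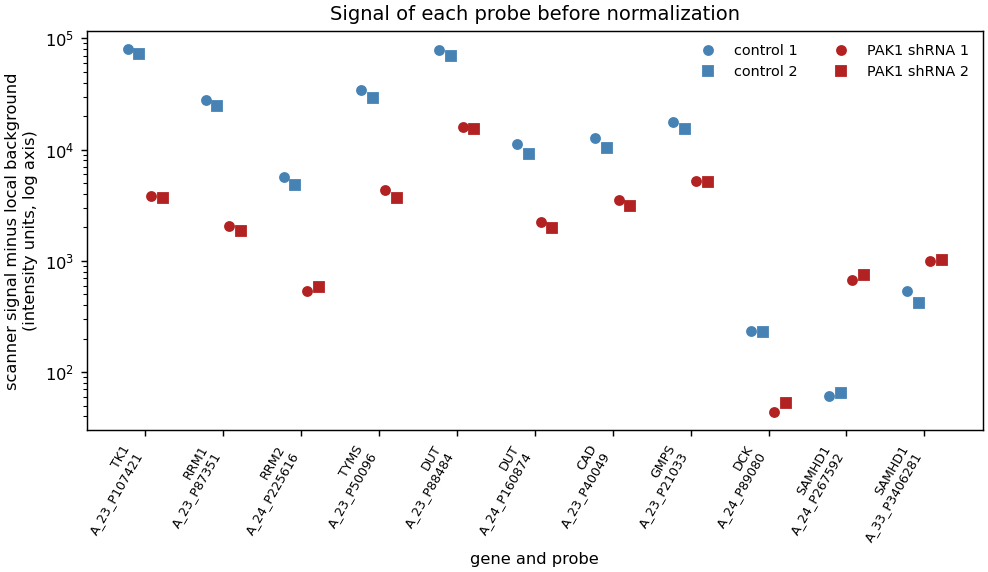
Scanner signal minus local background (intensity units, log axis) of the 11 probes of the 9 genes (horizontal axis), before any normalization, with flagged spots included. Each symbol is 1 array. For all probes of the other 8 genes the control spots are the brighter ones, and for both SAMHD1 probes the PAK1 shRNA spots are the brighter ones.

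The plot of raw signals shows that the direction of each of the 11 probes was present before normalization. The control arrays were brighter in general. Their median scanner signal was 501 and 384, beside 326 and 319 on the PAK1 shRNA arrays, so the raw direction of the lower genes includes this difference. Only points of the same probe can be compared, since probes differ in how they bind. None of the spots was saturated, and all were well above background. The dimmest spots were those of DCK on all arrays and those of the dimmer SAMHD1 probe on the control arrays.

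The salvage genes beside TK1 and DCK were lower or did not pass. Of 11 genes of salvage and nucleoside import, 7 were lower, none was higher and 4 did not pass, with a median log2 fold change of -0.57. Among all genes tested 32.0% were lower and 30.6% higher. The purine salvage enzymes HPRT1 and APRT fell by 1.07 and 0.93 on the log2 scale (adjusted p = 6.37e-05 and 5.50e-05 from limma), and UCKL1, a uridine-cytidine kinase, fell by 0.88 (adjusted p = 0.000109 from limma). The mitochondrial counterpart of TK1, TK2, had log2 intensities of 7.89 and 8.14 in controls and 7.49 and 7.30 in PAK1 shRNA cells, and fell by 0.62 (adjusted p = 0.0028 from limma). DGUOK, the mitochondrial relative of DCK, had a log2 fold change of -0.19 and did not pass (adjusted p = 0.0651 from limma). The differences in change between TK1 and TK2 and between DCK and DGUOK were not tested, since each gene was read by its own probe.

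Both genes that feed ribonucleotide as well as deoxynucleotide pools fell. CAD, the protein of 3 activities that opens pyrimidine synthesis, had log2 intensities of 13.26 and 13.30 in controls and 12.07 and 11.89 in PAK1 shRNA cells. GMPS, which makes GMP from XMP, had 13.76 and 13.87 in controls and 12.60 and 12.58 in PAK1 shRNA cells. The groups did not overlap in either gene. CAD changed by -1.30 (SE 0.09, 95% confidence interval -1.51 to -1.09, adjusted p = 2.92e-05 from limma), to 40.6% of the control level. GMPS changed by -1.22 (SE 0.08, 95% confidence interval -1.41 to -1.04, adjusted p = 2.20e-05 from limma), to 42.9%. Their probes lie at chr2:27465770-27465829 and at chr3:155654290-155655429 on the plus strand, and that of GMPS covers 1140 bases of genome with its 60 bases.

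Next, the rest of these pathways was examined. Of 4 further genes of pyrimidine synthesis 3 were lower and none was higher, with a median of -0.92. UMPS, which makes UMP, fell by 1.61 (adjusted p = 1.82e-05 from limma), DHODH, the mitochondrial step, fell by 1.08 (adjusted p = 6.24e-05 from limma) and CTPS2 fell by 0.76 (adjusted p = 0.000136 from limma). CTPS1, the other CTP synthase, had -0.15 and did not pass (adjusted p = 0.153 from limma). Of 12 genes of purine synthesis 10 were lower and none was higher, with a median of -0.97. Both lists stand beside 32.0% lower and 30.6% higher over all genes tested. IMPDH2, which acts just before GMPS, fell by 2.12 (adjusted p = 4.63e-06 from limma). PAICS, of the middle of the pathway, fell by 1.94 (adjusted p = 4.78e-06 from limma), and PRPS1, which makes the PRPP it starts from, fell by 1.62 (adjusted p = 2.11e-05 from limma). The 2 that did not pass were both adenylosuccinate synthases of the AMP branch, ADSS1 at 0.12 and ADSS2 at 0.07.

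SAMHD1, which breaks dNTPs down, was the only gene of the 9 that was higher. Its brighter probe, at chr20:35520759-35520818 on the minus strand, had log2 intensities of 8.80 and 8.84 in controls and 10.29 and 10.34 in PAK1 shRNA cells. Both PAK1 shRNA arrays lay above both control arrays, and the arrays of each group were close together. SAMHD1 rose by 1.49 (SE 0.07, 95% confidence interval 1.32 to 1.66, adjusted p = 7.91e-06 from limma), or 2.81-fold. A dimmer probe at chr20:35533804-35533863 had 6.73 and 7.01 in controls and 9.76 and 9.92 in PAK1 shRNA cells, a change of 2.97 (SE 0.11, adjusted p = 1.60e-06 from limma over 27394 probes). The probes therefore gave the same direction and different sizes, and their longest shared run was 8 bases.

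Of 15 genes for breakdown and cleaning of nucleotide pools, 8 were lower and 5 were higher, with a median log2 fold change of -0.44. Over all genes tested 32.0% were lower and 30.6% higher, so the share of higher genes was near that of the whole array. NT5E (CD73), which turns extracellular AMP into adenosine, had log2 intensities of 11.20 and 11.42 in controls and 14.83 and 15.02 in PAK1 shRNA cells and rose by 3.61 (adjusted p = 1.34e-06 from limma). NT5C3A, a cytosolic pyrimidine nucleotidase listed on the array as NT5C3, rose by 2.73 (adjusted p = 2.00e-06 from limma). The other higher genes were PNP, the purine nucleoside phosphorylase, at 1.19, the cytosolic purine nucleotidase NT5C2 at 0.78, and TYMP, the thymidine phosphorylase, at 0.75 (adjusted p = 5.20e-05, 0.000164 and 0.000131 from limma). The mitochondrial deoxynucleotidase NT5M went the other way, from 11.56 and 11.68 to 9.14 and 9.11, and fell by 2.5 (adjusted p = 1.57e-06 from limma).

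Of 11 mono- and diphosphate kinases, 5 were lower and 3 were higher, with a median of -0.24, where 32.0% of all genes tested were lower and 30.6% higher. The share of higher genes was near that of the whole array. CMPK2, a mitochondrial UMP-CMP kinase also known as an interferon-induced gene, had the largest rise among the 64 related genes. Its log2 intensities were 7.0 and 7.03 in controls and 11.23 and 11.29 in PAK1 shRNA cells, a rise of 4.25 (SE 0.07, adjusted p = 3.21e-07 from limma). The mean over its probes gave 2.34. NME1 and NME4, nucleoside diphosphate kinases, fell by 1.12 and 0.84 (adjusted p = 4.51e-05 and 0.000158 from limma), while NME3 rose by 0.53 and GUK1, the guanylate kinase, rose by 0.35 (adjusted p = 0.00066 and 0.00875 from limma). GUK1 no longer passed without the second PAK1 shRNA array, at 0.29 (adjusted p = 0.0538 from limma).

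**Figure D3:**
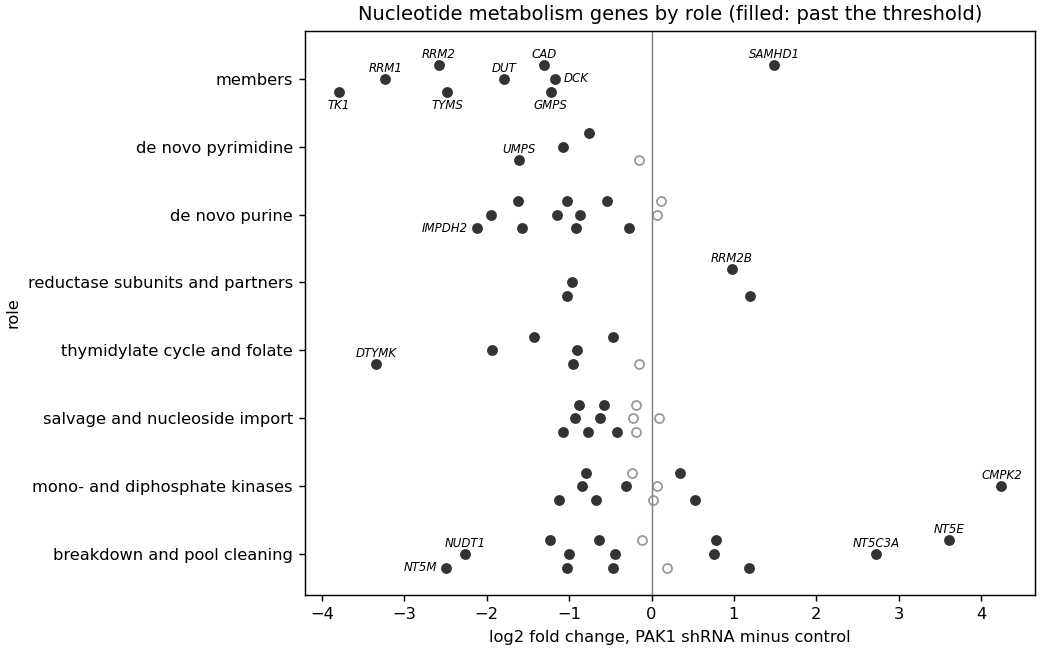
Log2 fold change (PAK1 shRNA minus control, horizontal axis) of the 9 genes and of 64 related genes by role (vertical axis). Each point is 1 gene, filled where it passed the threshold, and DCK is from the fit that kept flagged spots. Purine and pyrimidine synthesis and thymidylate genes lie at or left of 0 apart from 2 points that did not pass, while breakdown genes and kinases spread to both sides.

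Over all 64 related genes 41 were lower, 10 were higher and 13 did not pass, where 32.0% of all genes tested were lower and 30.6% higher. The median log2 fold change was -0.63, beside 0.02 over all genes tested. In the plot by role, the related genes that passed on the right side belong to the reductase partners, the kinases and the breakdown genes. Of the 64 genes, 47 had every PAK1 shRNA value measured below every control value measured and 12 had them above, beside 40.0% and 42.0% of all genes.

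The 9 changes differed in size. In order from the largest fall they were TK1, RRM1, RRM2, TYMS, DUT, CAD, GMPS and DCK, followed by SAMHD1 on the other side of 0. The 95% confidence intervals of RRM2 and TYMS overlapped, as did those of CAD, GMPS and DCK, so these neighbours were not ordered (DCK being read with its flagged spots kept). The differences between genes were not tested.

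**Figure D4:**
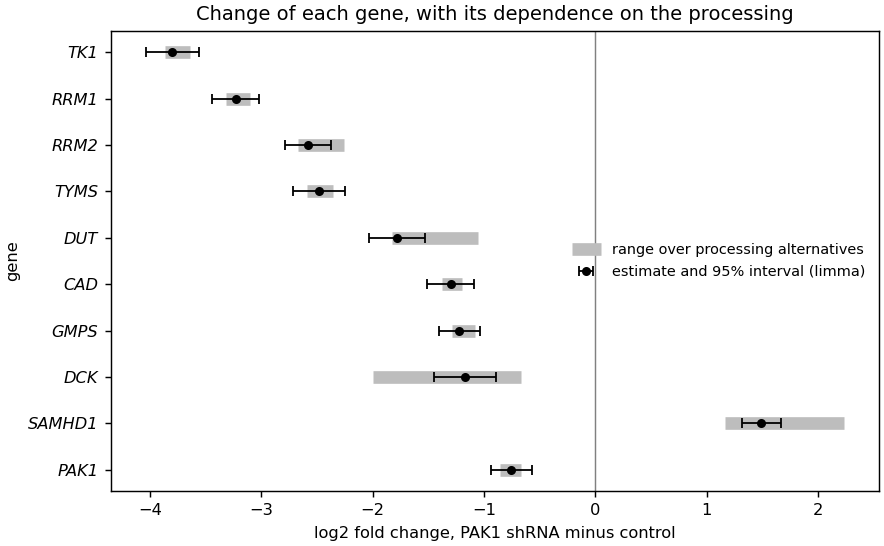
Log2 fold change (PAK1 shRNA minus control, horizontal axis) of each gene and of PAK1 with its 95% confidence interval from limma (black), and the range of the estimate over the processing alternatives (grey). No interval or range reaches 0. The grey ranges of DCK, SAMHD1 and DUT are the widest, and that of DUT ends at -1.05, the mean over its probes.

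The plot of changes with their ranges shows how far the processing moved each gene. PAK1 itself stayed between -0.86 and -0.67. For RRM1 the alternatives stayed between -3.32 and -3.10, and for TK1 between -3.87 and -3.64. SAMHD1 moved from 1.16 with normexp fitted on all spots to 2.23 with the mean over its probes.

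Other gene groups moved with these genes, and their part in the results was not tested. All 10 S phase genes listed, such as PCNA and the MCM helicase genes, were lower, with a median of -2.75 and a range from -3.86 to -0.53. All 10 interferon-stimulated genes listed were higher, with a median of 5.86 and a range from 2.24 to 11.01. These counts stand beside 32.0% lower and 30.6% higher over all genes tested. Both lists were chosen with earlier results of these data known, so the counts add no separate support. SAMHD1 and CMPK2 are both also known as interferon-induced in some cells.

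The labelled cell type was checked with marker lists. All 8 markers of basal mammary epithelium were well above background on both control arrays. Of the list, 5 genes were lower, among them KRT5 at -1.20 and TP63 at -1.13 on the log2 scale, and 2 were higher, LAMB3 and CDH3. Of 6 luminal markers PGR was at background on all arrays, and 1 of the other 5 was lower and 2 were higher. COL1A2, COL3A1 and PDGFRA, defining fibroblast genes, were at background on all 4 arrays, and the 3 other fibroblast markers were higher. The defining leukocyte genes PTPRC and CD3E did not pass, at log2 fold changes of 0.12 and 0.14, while CD14, CD68 and LCP1 were higher. Of 4 endothelial genes PECAM1 was lower and VWF was higher. The summed linear level of the fibroblast list was 3849 to 4576 in controls and 7704 to 7882 in PAK1 shRNA cells, and that of the endothelial list was 1047 to 1089 and 786 to 850, where KDR had no value on the first PAK1 shRNA array. For the other lists the sums were 496768 to 558551 and 316564 to 623985 (basal), 17015 to 161420 and 207841 to 225294 (luminal) and 19665 to 20465 and 10165 to 51715 (leukocyte), and a flagged bright spot was missing from some of these arrays. The part of these changes in the results was not tested.

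Finally, the genes with a pattern most like RRM2 and SAMHD1 were sought among the 19820 genes that every array measured well above background, by the root mean square difference of log2 values after each gene was centred on its own mean. The 5 nearest to RRM2 were C1orf96, CENPH, CHAF1B, BRCA1 and TMEM121, at differences from 0.015 to 0.047. CENPH is a centromere protein, CHAF1B a subunit of the chromatin assembly factor that acts behind the replication fork, and BRCA1 a repair protein. Their log2 fold changes lay between -2.67 and -2.49. The 5 nearest to SAMHD1 were MOV10, TBX3, XR_016053, ZNF79 and B3GNT9, at differences from 0.015 to 0.023 and log2 fold changes from 1.47 to 1.51. MOV10 is an RNA helicase and TBX3 a transcription factor. With 4 arrays in 2 groups this likeness is mostly a likeness in the size of the change.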

How the data were processed

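Per the labels and the file headers, the authors scanned 4 Agilent arrays (2 control and 2 PAK1 shRNA) with Feature Extraction 9.5.3.1. The intensity of each spot was deposited as scanned. A second deposited table holds the authors' processed log2 values and served as an alternative. Groups came from the sample labels, and the 9 genes and all lists were chosen with earlier results of these data known.

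Here the local background was subtracted and normexp (offset 50) was fitted without spots of flagged background, since 8 and 18 spots of the control arrays had a local background above 100 and none on the PAK1 shRNA arrays. Control and flagged spots were dropped, followed by quantile normalization and averaging of each probe's spots. A probe was used where both arrays of 1 group or more measured it well above background, and each gene was read by its brightest such probe on average. A gene missing on 1 array was fitted on the other 3. The tests were those of limma 3.58.1 (lmFit, eBayes) under R 4.3.3. P-values were adjusted by Benjamini-Hochberg over 21923 genes, at a threshold of 0.05. No replicate block was used in this fit. Of 123 genes in lists, 119 matched the array by current and 4 by older symbol. The text names the 9 genes, PAK1, in each related list the 3 largest changes past the threshold and each change against the list's direction, and the 5 genes nearest to RRM2 and to SAMHD1, apart from items not reported here. Genes named beside these, such as TK2, DGUOK and list genes that did not pass, were chosen after their values were seen. The fits were tested on simulated data. Alternatives covered background correction, signal, normalization, filter, flags, probe rule, test, replicate block and the omission of each array. With a single slide, no slide block could be fitted.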

Additional observations from a re-analysis of the deposited data

How the results depend on the processing

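The direction of PAK1 and of all 9 genes was the same under every alternative that gave them a value, and all but DUT stayed past the threshold. DUT changed by -1.05 with the mean over probes (adjusted p = 0.0796 from limma), where the control means rest on different probes, and by -1.79 with the unpaired t-test (adjusted p = 0.0637), against 15 other alternatives in which it passed. The unpaired t-test called 4519 genes lower and 4140 higher, beside 7010 and 6707; the cause was not tested. With the processed signal the split was 6403 lower and 7415 higher, and under median centring 6610 and 8401, so the share of lower genes among those called was 46.3% and 44.0% beside 51.1%, and the median over all genes was then 0.11 and 0.14.

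Leaving out each array in turn, with the lone array of a group assumed to vary like the other group, gave 5958 to 6636 lower and 5626 to 6274 higher genes. Without the first control array TK1 had no control value and could not be fitted, and the other probe stood for DUT. A fit with the labels' replicate numbers as a block called 6812 genes lower and 6669 higher, and 5 of the 6 deoxynucleotide genes that could be fitted were lower and 1 was higher. Arrays with the same number did not deviate together (r = 0.0118 over 21034 genes). With 2 arrays a group, this cannot show whether samples of the same number were handled together. Of the related genes that the naming rule takes, 466 values had the same direction and the same side of the threshold and 2, both of GUK1, no longer passed, at 0.35 with the unpaired t-test and 0.29 without the second PAK1 shRNA array. Signal over background limits DCK and the dimmer SAMHD1 probe.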

Other observations

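Enzymes that clean damaged or unwanted nucleotides from the pool were read after their values were seen. NUDT1 (MTH1), which removes oxidized purine triphosphates, had log2 intensities of 13.65 and 13.73 in controls and 11.41 and 11.45 in PAK1 shRNA cells and fell by 2.26 (adjusted p = 1.90e-06 from limma). DCTPP1, which hydrolyses dCTP and its modified forms, fell by 1.24 (adjusted p = 4.44e-05 from limma). ITPA, which removes inosine triphosphate, and NUDT18 did not pass, at 0.19 and -0.12. The control and PAK1 shRNA arrays did not overlap in NUDT1.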
